A study of Drosophila melanogaster with 20 samples.

Results

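EcR peaks of the leg were compared between the 2 chromatin fractions in which CUT&RUN fragments were sequenced, the supernatant and the pellet. The members were all peaks of the 2 leg lists, 1596 in the supernatant list and 1010 in the pellet list, which made 2606 of the 7703 peaks in the 6 lists of the series. Each peak was placed in 1 of 3 classes by position alone. A peak was shared if it overlapped a peak of the other leg list by at least 1 bp, and otherwise it was supernatant only or pellet only. By this rule 613 supernatant peaks and 622 pellet peaks were shared, 983 peaks were supernatant only and 388 were pellet only.

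Legs were dissected from female wandering larvae of Drosophila melanogaster, labelled as 6 hours before puparium formation, when the legs exist as imaginal discs. The genotype was w; EcR-GFSTF / Df(2R)BSC313: 1 copy of the EcR gene carried a GFSTF tag, which holds GFP and Flag, and the homologous chromosome carried the deletion, whose extent was not used here. The wing and salivary gland samples used here for comparison had the same genotype, sex and stage. A sample took at least 90 legs, so each was a pool of animals, and each leg fraction had 2 replicate libraries, 4 in all, which the authors merged into 1 peak list per fraction. Spread between replicates therefore could not be seen in any leg list, and depth per library was unknown. The Flag antibody was the one in the titles of these libraries. The control of the leg lists appears, from the names of their peaks, to have been the wing IgG libraries, merged. No leg IgG library was analysed here, so background that is particular to the leg cannot be told apart from binding. No cell type markers were measured, since the assay reads binding and not RNA.

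EcR is the nuclear receptor for ecdysone, the steroid hormone that drives moulting and metamorphosis in insects. With its partner Ultraspiracle it binds DNA and switches on a cascade of early genes, many of which encode transcription factors that act on later genes. At the end of larval life this cascade starts the eversion and differentiation of the leg discs. In CUT&RUN an antibody tethers micrococcal nuclease to the protein of interest, and the nuclease cuts the DNA beside it. Short fragments diffuse out of the nuclei into the supernatant, while fragments that do not leave are recovered from the pellet.

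The strongest EcR peaks of the leg were in both fractions. Shared peaks made up 38.4% of the supernatant list (exact Clopper-Pearson 95% interval 36.0 to 40.8%) and 61.6% of the pellet list (58.5 to 64.6%). All of the 50 peaks with the highest fold enrichment in either list were shared. Among the 100 strongest, 99 of the supernatant list and 97 of the pellet list were shared. The strongest supernatant only peak ranked 65 in its list, and the strongest pellet only peak ranked 76. All such intervals cover counting error over peaks only, and peaks of 1 list share their libraries.

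Fold enrichment is the height of a peak over its control, as the authors' peak caller gave it, and it was read only within a list. In the supernatant list shared peaks had a median fold enrichment of 13.0, with quartiles of 7.82 and 21.5 and a maximum of 160. Supernatant only peaks had a median of 5.65, with quartiles of 4.51 and 7.37 and a maximum of 35.3. The lower quartile of the shared peaks thus lay above the upper quartile of the supernatant only peaks. In the pellet list the classes lay closer together. Shared peaks there had a median of 4.69 and a maximum of 42.9, and pellet only peaks a median of 3.49 and a maximum of 10.8. Shared peaks were also wider, with a median of 234 bp against 114 bp in the supernatant list and 163 bp against 99.5 bp in the pellet list. No test was made of these differences, because a strong peak is more easily called in both lists and the classes come from the calls.

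**Figure D1:**
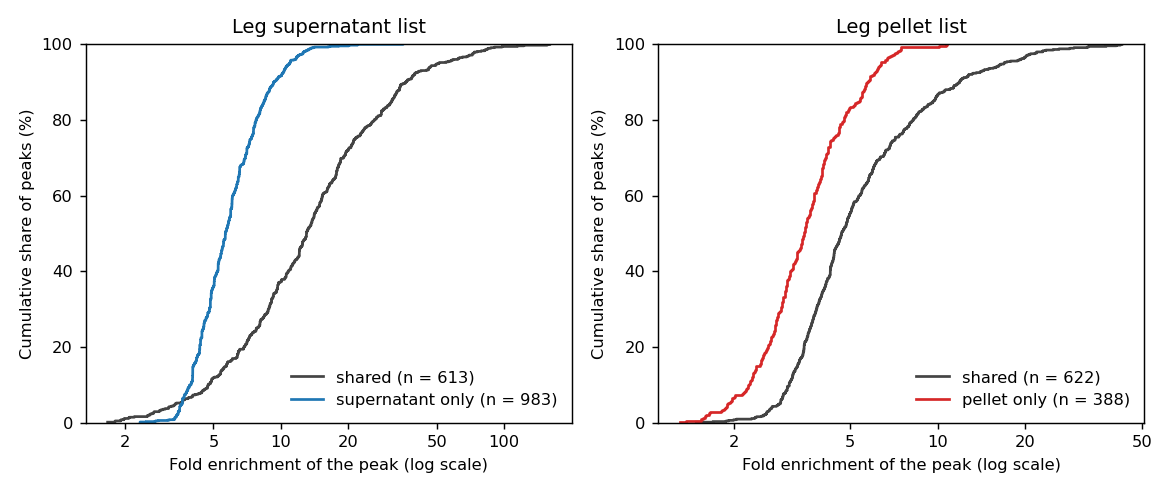
Cumulative share of peaks (%) against the fold enrichment of the peak on a log scale, for the leg supernatant list on the left and the leg pellet list on the right, with shared peaks in grey, supernatant only peaks in blue and pellet only peaks in red. Shared peaks lie to the right in both lists, with medians of 13.0 against 5.65 in the supernatant list and 4.69 against 3.49 in the pellet list.

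The share of peaks found in the other fraction went up with fold enrichment, more steeply in the supernatant list. In the highest decile of the supernatant list 98.1% of peaks were shared, and in the next decile 91.8%. In decile 2, counted from the weakest, 8.13% were shared. Decile 1 broke this order, with 26.3% shared. Of its 42 shared peaks, 35 lay within 5 Mb of the centromere-side end of a chromosome arm or on chromosome 4, Y or M. In the pellet list the share was 97.0% in decile 10, between 55.4% and 85.1% in deciles 3 to 9, and 19.8% in decile 1.

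Confidence of the call did not order the 2 lists alike. Of the supernatant only peaks, 23.7% had a −log10 q of 10 or more, against 83.2% of the shared peaks of that list. Of the pellet only peaks, 50.8% reached that value, against 58.2% of the shared peaks of the pellet list. With peaks below a −log10 q of 10 left out of the counted list only, 68.6% of supernatant peaks and 64.8% of pellet peaks were shared. The same count gave 96.1% and 78.9% for the wing lists and 88.3% and 91.1% for the salivary gland lists. The leg thus had the lowest share of the 3 tissues in both fractions at this value, although with 1 merged list per tissue and fraction a difference between tissues could not be tested.

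**Figure D2:**
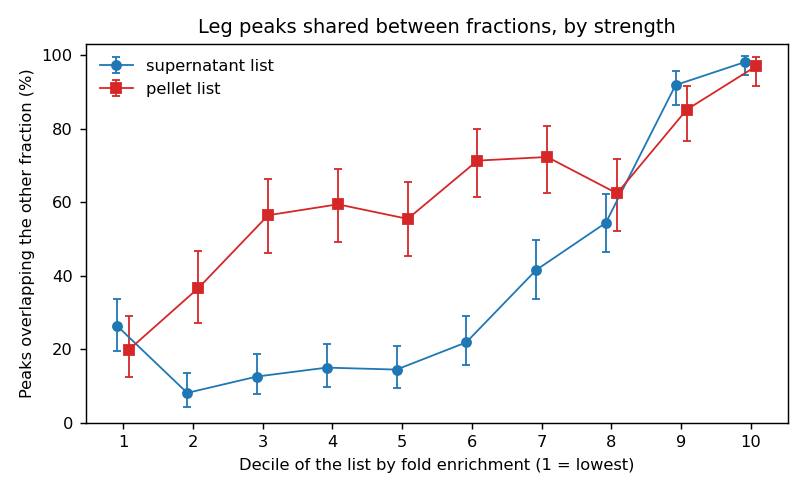
Share of leg peaks that overlapped a peak of the other fraction (%), by decile of the list ordered by fold enrichment (1 is the lowest), with supernatant peaks as blue circles, pellet peaks as red squares and exact 95% intervals as bars. The share reaches 98.1% and 97.0% in decile 10 of the supernatant and pellet lists, and in the supernatant list it is 8.13% to 21.9% in deciles 2 to 6.

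Where both fractions held a peak, the summits were nearly at the same base. The shared peaks formed 628 overlapping pairs, 587 of them 1 to 1. The distance between the summits of a pair had a median of 21 bp, with quartiles of 6.75 and 44.2 bp, and it was within 50 bp in 499 pairs (79.5%) and within 100 bp in 582 (92.7%). Only overlapping peaks form pairs, so the rule itself limits this distance by the widths of the peaks. The shorter peak lay wholly inside the longer one in 512 pairs (81.5%). The supernatant peak was the wider one in 487 pairs (77.5%), with a median width ratio of 1.39.

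The 8 pairs with the summits farthest apart included broad supernatant peaks at ecdysone genes. The largest distance, 848 bp, was at chr2L:2202894-2203628 in CG31668, with a supernatant fold enrichment of 29.8 and a pellet fold enrichment of 5.02. The supernatant peak in Blimp-1 at chr3L:5633089-5634517 overlapped 2 pellet peaks, the farther one 715 bp away. Blimp-1 encodes a transcriptional repressor of the ecdysone cascade. A pair at Eip74EF was 469 bp apart, and a pair inside br was 463 bp apart.

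Few peaks fell near the edge of the overlap rule. The smallest overlaps were 9, 12 and 17 bp, the last of them in grn, a GATA factor gene, at chr3R:8158143-8158305. The smallest gaps were 9, 13 and 23 bp, the last of them at CG7546 on 3L. Of the supernatant only peaks, 9 lay within 100 bp of a pellet peak and 104 (10.6%) within 500 bp. Of the pellet only peaks, 4 lay within 100 bp of a supernatant peak and 34 (8.76%) within 500 bp.

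**Figure D3:**
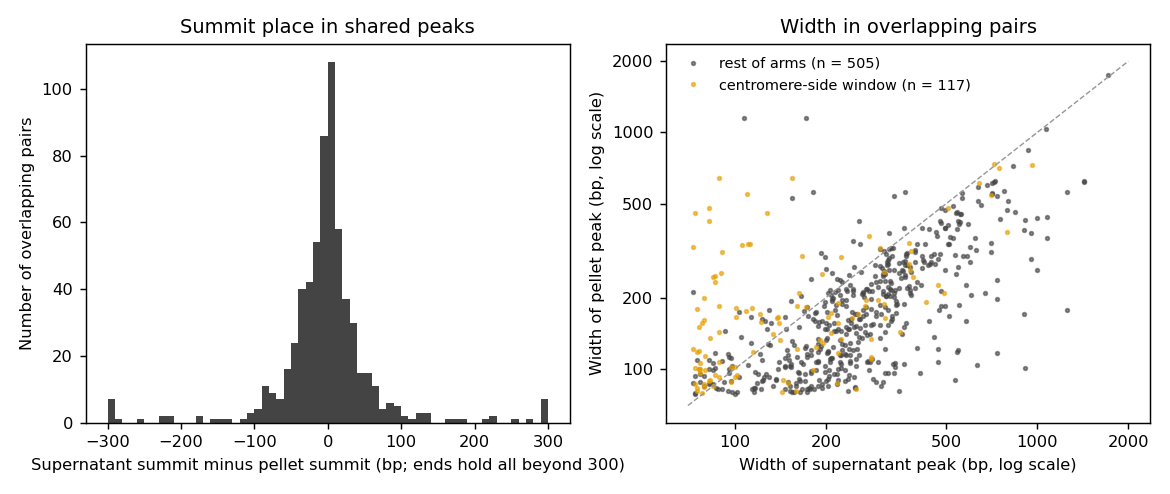
Left, the number of overlapping leg pairs by the position of the supernatant summit minus that of the pellet summit, in bins of 10 bp, with the most distant pairs in the end bins. Right, the width of the pellet peak against that of the supernatant peak in bp for each pair, both on log scales, in grey for the rest of the arms (n = 505) and in orange for the 5 Mb at the centromere-side end (n = 117), with a dashed line at equal width. Most summits lie within 50 bp of each other, and most pairs lie below the line, the supernatant peak being the wider in 77.5% of all pairs.

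Of the 10 strongest shared peaks, 6 had the summit in the span of a gene of the ecdysone response or within 2000 bp of it. The highest fold enrichment of the supernatant list, 160, was at chr3L:5621807-5622348, where the pellet peak had 41.0, rank 3 of its list. It lay 8924 bp from the nearest coding gene span. The next was 2993 bp outside Blimp-1 at chr3L:5627664-5628389, with 156 in the supernatant list and 42.9 in the pellet list, the highest of the pellet list. Hr4, which encodes an orphan nuclear receptor, held 3 of the 10 strongest shared peaks. The first 2 of these, at chrX:1947901-1948584 and chrX:1947118-1947660, had 123 and 115 in the supernatant list and 32.9 and 42.3 in the pellet list. The other Hr4 peak had 84.0 and 21.6. A peak inside Blimp-1 had 97.8 and 28.4. The peak 547 bp from Hsp27, a small heat shock gene that responds to ecdysone, had 90.4 and 19.8, and a peak in vri, which encodes a bZIP repressor, had 82.5 and 21.8. Of the 10, 2 more, with 87.1 and 84.6, lay 8666 and 8200 bp from a coding span. All 10 strongest shared peaks overlapped peaks of all 4 wing and gland lists.

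The 10 strongest supernatant only peaks were 84 to 283 bp wide, around the class median of 114 bp, and their genes were of many kinds. The highest, 35.3, was in CHES-1-like, a forkhead factor gene, at chrX:7689040-7689132. It was 93 bp wide, overlapped both gland lists and the wing supernatant list, and did not overlap a wing pellet peak. Ten-m, a teneurin gene, held a peak of 22.2, 84 bp wide, and red a peak of 22.1. A peak in numb, whose product is an inhibitor of Notch signalling, had 20.2, and a peak in jing, a zinc finger gene, had 16.6. Others of the 10 lay in hth (18.1) and Eip75B (16.3), and the remaining 3 had no coding gene within 5000 bp. The red, numb, hth, jing and Eip75B peaks all overlapped wing pellet peaks, so that the matching pellet peak was called in the wing and not in the leg.

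The strongest pellet only peaks were mostly on the X chromosome and far from genes. The highest, 10.8, was at chrX:21713866-21713983, 83775 bp from the nearest coding span. A peak of 10.7 in SK, a potassium channel gene, and one of 10.1 in nAChRalpha3, an acetylcholine receptor subunit gene, followed. Muc14A, a mucin gene, held a peak of 7.32. The other 6 of the 10 had no coding gene within 5000 bp, and 5 of these lay within 1 Mb of the centromere-side end of 3R or within 2 Mb of that of X.

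Pellet only peaks stood apart from the other classes in their place along the chromosomes. The 5 Mb at the centromere-side end of the 5 large arms held 251 of the 388 pellet only peaks (64.7%, 59.7 to 69.4%). It held 116 of the 613 shared supernatant peaks (18.9%) and 63 of the 983 supernatant only peaks (6.41%). By length this window was 19.0% of the arms, and it held 8.03% of the coding genes on them. Arm ends were taken from the first and last gene of a RefSeq gene table on the same assembly, and the window was chosen after the positions had been seen. Summits beyond the last gene on the centromere side, such as those in chr3R:1004-75537, were counted in the window. The 19.0% leaves that sequence out, so the 2 shares are not of quite the same region. No test was made of the difference between classes, since neighbouring peaks are not independent.

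Pellet only peaks also lay in runs. Of the 388, 252 (64.9%) were in runs of at least 3 pellet only peaks with gaps of at most 20000 bp, against 43.6% of shared and 38.9% of supernatant only peaks in runs of their own class. The largest run held 34 pellet only peaks in chr3R:1004-75537, with 22 supernatant peaks among them. The next held 29 in chrX:23205855-23284148, with 6 supernatant peaks, and 21 in chr3L:24594164-24685549, with 9. None of these 3 runs held a coding gene. A run of 16 lay at the other end of an arm, in chr2R:25262368-25286757. Within 1 Mb of the centromere-side end, 3R held 72 pellet only peaks and X held 53, while 2L held 7.

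The X chromosome held 136 pellet only peaks (35.1% of the class), against 16.0% of shared and 15.2% of supernatant only peaks, and it spans 17.9% of the length of the arms. Outside the centromere-side window and chromosomes 4, Y and M, X still held 48 of 118 pellet only peaks (40.7%). It held 16.9% of shared and 15.1% of supernatant only peaks there. Arm 2L, of nearly the same length as X, held 16 pellet only peaks (4.12%). Chromosome 4 held 10 pellet only peaks and no supernatant peak. Chromosome Y held 6 supernatant peaks, all shared, and 15 pellet peaks, 9 of them pellet only, in libraries labelled female. The mitochondrial genome held 20 supernatant only peaks and no pellet peak, and all 20 overlapped peaks of both the gland supernatant and the gland pellet list. Of these 20, 13 overlapped a wing supernatant peak and 0 a wing pellet peak.

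**Figure D4:**
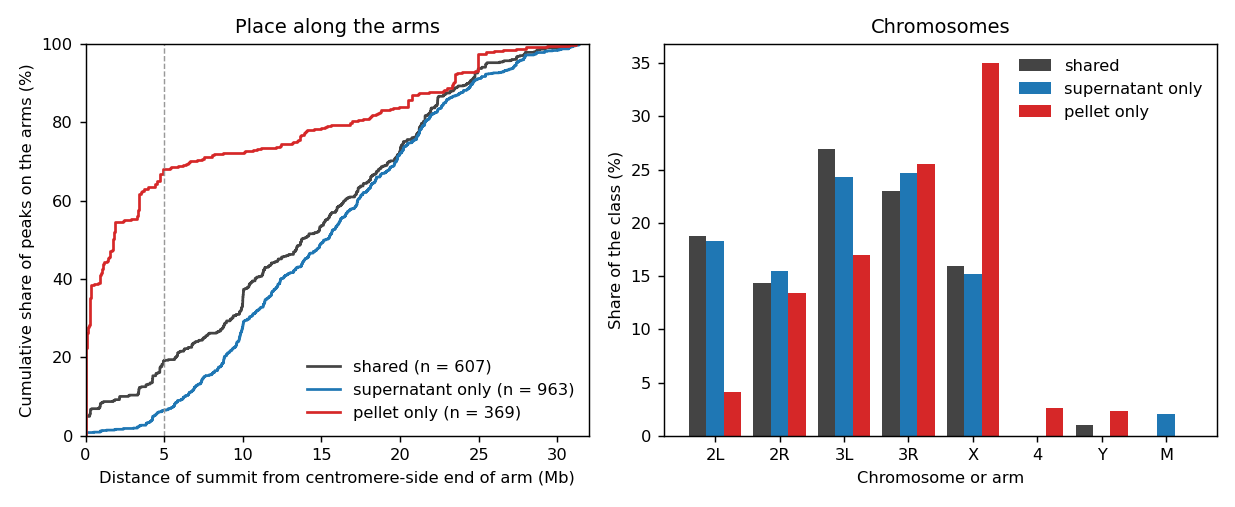
Left, the cumulative share of leg peaks on the 5 large arms (%) against the distance of the summit from the centromere-side end of the arm in Mb, by class, with a dashed line at 5 Mb. Right, the share of each class (%) on each chromosome or arm. Pellet only peaks rise steeply in the first 5 Mb, which hold 251 of them, and take a larger share on X (35.1%) than the other classes (16.0% and 15.2%).

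Summits of shared and supernatant only peaks lay mostly inside genes, and those of pellet only peaks mostly did not. A summit was inside a coding gene span, from the first to the last base of the gene, in 61.5% of shared peaks (57.5 to 65.4%), 68.1% of supernatant only peaks (65.0 to 71.0%) and 22.4% of pellet only peaks (18.4 to 26.9%). Summits within 500 bp of either end of a coding span made up 9.46%, 10.5% and 2.58%. No coding span lay within 5000 bp of 20.2%, 13.3% and 71.9% of the summits. The contrast was smaller outside the centromere-side window and chromosomes 4, Y and M. There the share inside a coding span was 69.7%, 69.4% (66.3 to 72.4%) and 58.5% (49.0 to 67.5%), and the share within 500 bp of an end was 9.98%, 9.44% and 8.47%. Pellet only summits there still most often had no coding span within 5000 bp, 26.3% (18.6 to 35.2%), against 9.16% of shared and 12.8% of supernatant only summits. The 118 pellet only peaks there include a run of 16 in chr2R:25262368-25286757 and a run of 8 in chrX:52822-73286. Both runs lay at arm ends away from the centromere, and neither held a coding gene. None of the 69 pellet only summits inside a coding span there lay in these runs, whose peaks add only to the 118. Shares without the runs were not computed, so no contrast at genes beyond what these runs could give is shown. The gene table held no strand and no exons, so start sites, exons and introns were not told apart.

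Of the 32 genes in the list of ecdysone response genes, 23 had a leg summit in their span or within 2000 bp, against 6.73% of all coding genes. Shared peaks were at 18 of them, supernatant only peaks at 18, and a pellet only peak at 1. Over all 13959 coding genes the shares were 2.61% for shared, 4.78% for supernatant only and 0.774% for pellet only peaks. The list's genes were long, with a median span of 19361 bp against 2160 bp for all coding genes. Among the 1069 coding genes at least that long, 31.8% had a leg peak, 15.2% a shared, 24.7% a supernatant only and 3.74% a pellet only peak. The list's own shares were 71.9%, 56.2%, 56.2% and 3.12%. The list was written with earlier results of these data known, and its counts were not tested. Its peaks were 84 of the 613 shared peaks (13.7%), 56 of the 983 supernatant only peaks (5.70%) and 1 of the 388 pellet only peaks (0.258%). The 84 shared peaks had a median fold enrichment of 22.1 in the supernatant list, above the 13.0 of all shared peaks, while the 56 supernatant only peaks had a median of 6.02, near the 5.65 of their class.

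Early genes carried both classes side by side. Eip75B, an early gene that encodes a nuclear receptor, had the most leg peaks of any gene, 26 shared, 13 supernatant only and 1 pellet only. Its shared peaks ranged from 4.44 to 81.7 in the supernatant list with a median of 18.1, and its supernatant only peaks from 5.25 to 16.3 with a median of 6.23. Its highest peak was at chr3L:18007207-18008000, with 81.7 in the supernatant list and 29.3 in the pellet list. A peak at chr3L:18037780-18038256 had 72.1 and 37.8, the latter the highest pellet value of the gene. The pellet only peak, at chr3L:17962714-17962862, had 4.03 in the pellet list.

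The early gene br, whose zinc finger proteins specify pupal development, had 6 shared and 4 supernatant only peaks. Its highest shared peaks had 72.5, 68.0 and 62.0 in the supernatant list, and its supernatant only peaks had 4.38 to 11.7. Eip74EF, an early gene of the ETS family, had 5 shared peaks, with 13.0 to 49.4, and 6 supernatant only peaks, with 4.33 to 10.2. In Eip74EF every shared peak was higher in the supernatant list than every supernatant only peak. In br 4 of the 6 shared peaks were, and the other two, at chrX:1612069-1612215 with 6.47 and chrX:1613100-1613411 with 11.2, were not.

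The other nuclear receptor genes showed the same 2 classes. Hr4 had 9 shared and 5 supernatant only peaks, Hr3 had 5 and 3, and Eip78C had 4 and 3. Hr39 had 4 shared peaks and no other. EcR itself had a shared peak of 20.1 at chr2R:6120677-6120792, with 3.06 in the pellet list, and a supernatant only peak of 5.46. ftz-f1, a competence factor gene for the prepupal response, had 1 supernatant only peak of 3.54. Hr78 had 1 shared peak 1157 bp outside its span, with 5.74 in the supernatant list (rank 998) and 8.56 in the pellet list.

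Other members of the response had both classes as well. vri had 5 shared and 5 supernatant only peaks, and tai, which encodes a coactivator of EcR, had 3 and 5. Kr-h1, a target of juvenile hormone signalling, had 4 and 2, E23, an ABC transporter gene, 3 and 1, and Blimp-1 2 and 1. At ImpE2, induced by ecdysone in imaginal discs, 2 shared peaks of 69.7 and 47.2 lay beside 2 supernatant only peaks of 6.40 and 13.4. ImpE1, ImpE3, ImpL2 and Ldh (listed as ImpL3) each had a single supernatant only peak, with 5.46, 4.04, 6.94 and 5.04. Hsp27, Hsp23 and crol, a zinc finger gene, had shared peaks only. The Hsp27 and Hsp23 counts overlap, since 2 of their peaks lie within 2000 bp of both genes.

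**Figure D5:**
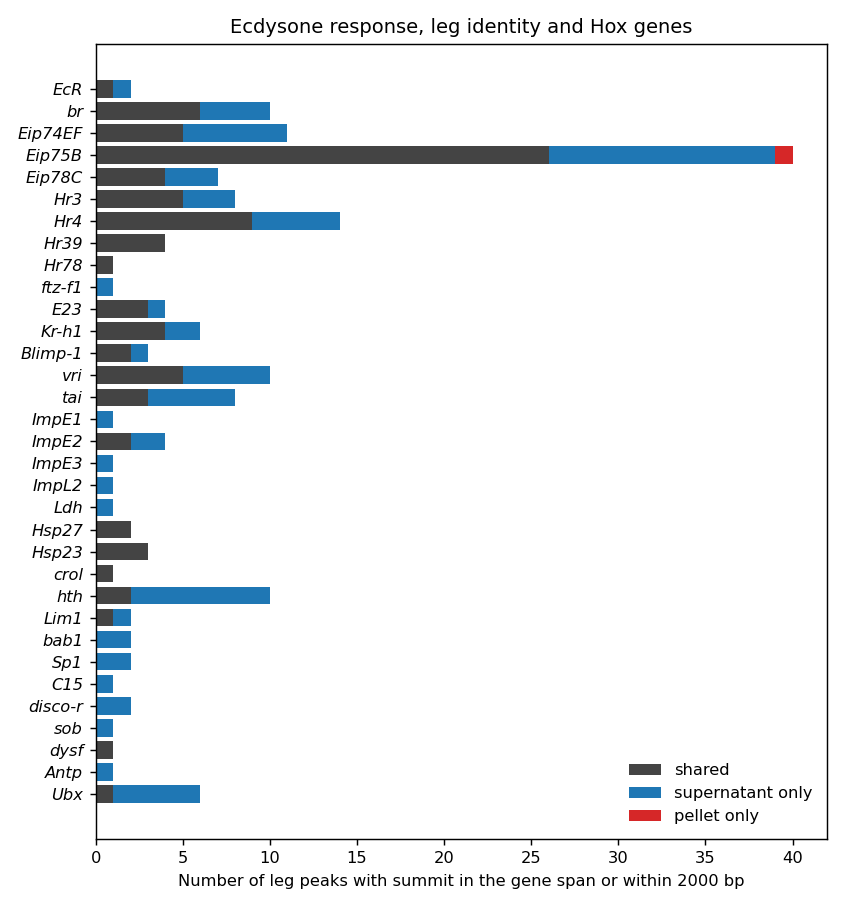
Number of leg peaks with the summit in the gene span or within 2000 bp, for each gene of the ecdysone response, leg identity and Hox lists with at least 1 such peak, stacked by class with shared in grey, supernatant only in blue and pellet only in red. Eip75B has 26 shared peaks, hth and Ubx have mostly supernatant only peaks, and only Eip75B among these genes has a pellet only peak.

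Genes that pattern the leg had peaks about as often as coding genes at least as long as the list's median. That set is not matched by length, here or for the other lists. Genes of a list that are shorter than its median have no counterpart in the set. Of 28 leg identity genes, 8 (28.6%) had a leg peak, against 6.73% of all coding genes and 25.7% of those at least as long as the list's median of 11212 bp. Shared peaks were at 3 of them (10.7%, against 11.5% of coding genes that long), supernatant only peaks at 7 (25.0%, against 19.4%) and pellet only peaks at none (against 2.98%). hth, a homeobox gene that marks the proximal leg, had 2 shared peaks, of 10.6 and 4.63, and 8 supernatant only peaks, of 3.53 to 18.1. Its highest peak, at chr3R:10546711-10546993, was thus in the supernatant list alone. Lim1, a LIM homeobox gene, had 1 of each class, and dysf 1 shared peak. bab1, Sp1, C15, disco-r and sob had supernatant only peaks, of 3.85 to 8.08. Of 8 Hox genes 2 had peaks (25.0%, against 37.4% of coding genes at least as long as their median). Ubx had 1 shared peak of 11.3 and 5 supernatant only peaks of 4.71 to 11.1, and Antp 1 supernatant only peak of 4.34. Ubx and Antp set the identity of thoracic segments, from which the legs arise.

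Genes of disc signalling had shared peaks at 9 of 33 (27.3%), supernatant only peaks at 16 (48.5%) and a pellet only peak at 1 (3.03%). Over all coding genes these shares were 2.61%, 4.78% and 0.774%, and over the 1433 at least as long as the list's median of 14278 bp they were 13.3%, 21.6% and 3.14%. The highest was in nkd, an inhibitor gene of Wnt signalling, at chr3L:19040929-19041630 with 78.9 in the supernatant list and 17.0 in the pellet list. fz2, a Wnt receptor gene, had a shared peak of 39.8, and tkv, a Dpp receptor gene, one of 36.8. spi, an EGF receptor ligand gene, had 3 shared peaks, of 9.28 to 22.8. N, Ser, fz, ds and E(spl)mbeta-HLH had shared peaks of 5.39 to 17.0. brk, Dad, fz3, Egfr, aos, ex, ft and Socs36E had no shared peak, and their supernatant only peaks had 3.70 to 11.9. The pellet only peak was in ex, a Hippo pathway gene, at chr2L:442612-442696 with 3.65.

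In the remaining lists of the response and of disc growth, shares with any leg peak are given beside that of coding genes at least as long as the list's median. Of 17 genes of disc eversion and matrix 5 had a peak (29.4%, against 29.7%). Np, dpy, zip and Ppn had shared peaks and also supernatant only peaks, and Sb, a protease gene of leg eversion, had a supernatant only peak. Of 17 cell cycle genes 3 had one (17.6%, against 15.3%), of which stg and E2f1 had both classes and Myc a supernatant only peak. Of 18 genes of cell death and autophagy 4 had one (22.2%, against 13.4%). Atg1 and Atg9 had a shared peak each, of 21.2 and 6.07, and hid and Diap1 had supernatant only peaks of 3.62 to 8.56. Of 12 genes of ecdysone metabolism and uptake 3 had one (25.0%, against 14.4%). The genes spok, phtm and Oatp74D had shared peaks, and phtm also a supernatant only peak. Oatp74D encodes the importer that brings ecdysone into cells. Among 9 juvenile hormone genes only Kr-h1 had peaks (11.1%, against 11.4%).

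Lists of other tissues had peaks at 9.09% to 33.3% of their genes, against 6.73% of all coding genes. Of 21 wing identity genes, kn, knrl and bi had supernatant only peaks (14.3% with any peak, against 33.7% of coding genes at least as long as the list's median). Of 18 cuticle genes Cpr49Ac, Cht5 and obst-A had supernatant only peaks (16.7%, against 7.66%), and of 11 salivary glue genes Sgs1 had a pellet only peak (9.09%, against 7.12%). Among markers of other cell types, Lsp1gamma was the 1 of 9 fat body genes with a peak, a shared one (11.1%, against 12.02%). The haemocyte genes with peaks were eater, with a shared and a pellet only peak, and ush, with a supernatant only peak, of 10 (20%, against 23.8%). Muscle genes with peaks were how, twi and Mef2 of 11 (27.3%, against 29.4%), tracheal genes trh, verm and knrl of 9 (33.3%, against 21.5%), and neuron genes neur and brp of 11 (18.2%, against 21.3%). Shared peaks were at 1 of the muscle genes (how), at 2 of the tracheal genes (trh and verm) and at none of the neuron genes.

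Outside the centromere-side window and chromosomes 4, Y and M, 78 of 118 pellet only peaks (66.1%) lay in a coding gene span or within 2000 bp, and they met 98 coding genes. Genes with several such peaks were picked out after their values had been seen. The w gene, the eye colour gene white, held 5 pellet only peaks in chrX:2790304-2793064, with fold enrichments of 3.93 to 4.93 in the pellet list. It held no shared and no supernatant only peak, and none of the 5 overlapped a peak of the wing or gland lists. The tagged genotype carries the allele w, and the wing IgG libraries that the peak names point to as control came from wild-type animals. Any bearing of this difference in genotype on the w peaks was not tested. The w gene lies inside the long gene kirre, to which the same 5 peaks count. CG7546 on 3L held 4 pellet only and 2 supernatant only peaks within 2000 bp, none of which overlapped a wing or gland peak. In the centromere-side window, Myo81F, whose span is 1965857 bp, held 8 pellet only peaks.

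Shared leg peaks recurred in the wing far more than the others. A wing supernatant peak was overlapped by 87.1% of shared peaks (84.2 to 89.7%), 44.9% of supernatant only peaks (41.7 to 48.0%) and 16.0% of pellet only peaks (12.5 to 20.01%). A wing pellet peak was overlapped by 90.0%, 37.7% and 53.4%. Supernatant only peaks of the leg were often in both wing fractions: 309 of the 983 (31.4%) overlapped a peak of each wing list, 132 (13.4%) one of the wing supernatant list alone and 62 (6.31%) one of the wing pellet list alone. Pellet only peaks of the leg followed the fraction more closely, with 157 of 388 (40.5%) in the wing pellet list alone, 12 (3.09%) in the wing supernatant list alone and 50 (12.9%) in both. Recurrence and strength were not separated. Shared peaks in both wing lists had a median fold enrichment of 14.5, those in neither 7.61 and those in the wing pellet list alone 4.85. For supernatant only peaks these medians were 7.06, 4.98 and 5.73, and for pellet only peaks 4.12, 3.42 and 3.31.

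In the salivary gland the shares were lower in all classes. A gland supernatant peak was overlapped by 43.2% of shared, 16.9% of supernatant only and 4.12% of pellet only peaks, and a gland pellet peak by 34.7%, 12.2% and 7.73%. Peaks found in none of the other 4 lists made up 6.69% of shared, 43.7% of supernatant only and 43.0% of pellet only peaks. Outside the centromere-side window and chromosomes 4, Y and M, 38.9% of supernatant only and 35.6% of pellet only peaks overlapped wing pellet peaks. The higher share of pellet only peaks over the whole genome was not seen there. On chromosomes 4, Y and M, 14 of 19 pellet only and 0 of 20 supernatant only peaks overlapped wing pellet peaks. The lists of all tissues point to the same wing IgG control, and peaks of 2 lists can meet for that reason too. The part of the control in these shares was not tested.

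Signal at these sites was also compared between tissues in the authors' deposited tables, which give a log2 fold change per site over 3463 sites. The sources used here do not say which libraries and fractions entered those fits, so the tables are not independent of the peak lists. A site can hold several peaks, and 17 supernatant only and 5 pellet only peaks lay in a site that also held a shared peak. Any site that overlapped peaks of both leg lists was counted as shared.

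In the authors' deposited table of leg against gland, 367 of 600 shared sites (61.2%) were higher in the leg at an adjusted p under 0.05, against 29.6% of all sites tested. Of the supernatant only sites 293 of 937 (31.3%) were higher in the leg in the authors' deposited table, and of the pellet only sites 247 of 375 (65.9%). The authors' deposited table gave 65 shared, 72 supernatant only and 4 pellet only sites as higher in the gland, against 22.7% of all sites. Median log2 fold changes of leg over gland in the authors' deposited table were 1.31, 1.04 and 1.77 for the 3 classes, and 0.63 over all sites. Relative to all sites they were 0.68, 0.41 and 1.13. The balance of the calls depended on the scale. After centring on the median of all sites, 200 shared sites were higher in the leg and 105 in the gland, 75 and 124 supernatant only sites, and 124 and 6 pellet only sites, so that for supernatant only sites the larger count changed sides. Over all sites 12.2% and 30.2% were then called higher in the leg and in the gland. A leg peak was itself needed for a site to enter these classes, so these shares were not read against the background as a result about the fractions.

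The pellet only share in that comparison went with place. In the centromere-side window, 195 of 244 pellet only sites (79.9%) and 88 of 111 shared sites (79.3%) were higher in the leg in the authors' deposited table, and 62.0% of all sites there. In the rest of the arms the authors' deposited table gave 37 of 112 pellet only sites (33.0%), 267 of 874 supernatant only sites (30.5%) and 273 of 483 shared sites (56.5%) as higher in the leg. The salivary gland is polyploid, and its centromere-side heterochromatin is known to be under-replicated, so copy number and binding cannot be told apart at those sites. Coverage also differed: the mean normalised count of a site in the authors' deposited table had a median of 35.6 for shared, 8.18 for supernatant only and 12.04 for pellet only sites.

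Of the 84 shared peaks at genes of the ecdysone list, 29 (34.5%) lay in a site higher in the leg in the authors' deposited table and 27 (32.1%) in a site higher in the gland, against 61.0% and 11.1% of all shared peaks. Of the 56 supernatant only peaks 8 (14.3%) and 13 (23.2%) did, against 30.7% and 10.1% of that class. After centring, the counts were 11 and 39 for the shared peaks, against 33.3% and 17.8% of the class, and 2 and 19 for the supernatant only peaks, against 7.93% and 15.7%. At br, the supernatant only peak chrX:1610058-1610342 lay in a site with a log2 fold change of -3.02 ± 0.41 (SE) for leg over gland in the authors' deposited table (adjusted p = 1.5e-11, DESeq2). At disc signalling genes the authors' deposited table put 10 of 14 shared peaks (71.4%) and 12 of 33 supernatant only peaks (36.4%) in a site higher in the leg. The class shares were 61.0% and 30.7%. None lay in a site higher in the gland, against 11.1% and 10.1% of the classes. After centring, 8 (57.1%) and 5 (15.2%) were higher in the leg, against 33.3% and 7.93% of the classes. In the gland 0 and 1 were higher, against 17.8% and 15.7%. These differences rest on few peaks and were not tested.

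Leg and wing differed at few sites of any class. In the authors' deposited table of wing against leg, 15 of 600 shared, 14 of 890 supernatant only and 1 of 369 pellet only sites were higher in the leg, against 0.902% of all sites tested. The authors' deposited table gave 6, 10 and 1 sites of these classes as higher in the wing, against 0.571% of all sites. Wing over leg the median of all sites was -0.18 on the log2 scale. After centring on it, 11 shared sites were higher in the leg and 15 in the wing, and 7 and 18 supernatant only sites, so that in both classes the larger count changed sides, while pellet only sites stayed at 1 and 1. Over all sites 0.549% and 1.39% were then called higher in the leg and in the wing. These are shares of 3459 sites, against 3327 as deposited, because sites without a deposited adjusted p were given one after centring. The 2 changes were not separated. Ubx had 2 sites higher in the leg in the authors' deposited table, with log2 fold changes of wing over leg of -2.32 ± 0.39 (SE) at its shared peak (adjusted p = 1.5e-06, DESeq2) and -2.74 ± 0.67 at a supernatant only peak (adjusted p = 0.0091). The supernatant only peak of hth at chr3R:10507258-10507526 lay in a site with -1.76 ± 0.52 in the authors' deposited table (adjusted p = 0.041, DESeq2). After centring, both Ubx sites were still called (adjusted p = 1.8e-05 and 0.015) and the hth site was not (adjusted p = 0.088).

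At ecdysone genes the differences between wing and leg went both ways as deposited. After centring, every site called at these genes was higher in the wing. The lowest adjusted p among them was at an Eip75B site with a shared peak, chr3L:18011979-18012212. It had 0.96 ± 0.18 (SE) for wing over leg in the authors' deposited table (adjusted p = 8.6e-05, DESeq2), and 4.7e-07 after centring. A shared E23 site had 0.98 ± 0.24 (adjusted p = 0.0093, DESeq2, the authors' deposited table), and 0.00042 after centring. The supernatant only peak of Eip78C at chr3L:21238436-21238621 lay in a site with -2.09 ± 0.61 (SE) for wing over leg in the authors' deposited table (adjusted p = 0.041, DESeq2). The authors' deposited table gave Eip75B a supernatant only site higher in the leg (-1.78 ± 0.50) and another higher in the wing (1.098 ± 0.30). After centring, the sites of Eip78C and Eip75B higher in the leg were no longer called (adjusted p = 0.074 and 0.063), while the supernatant only Eip75B site higher in the wing was (adjusted p = 0.0040). The shared site counted to Hr78, higher in the leg as deposited (-2.09 ± 0.63), was also no longer called (adjusted p = 0.089). Shared sites of Eip78C, not called as deposited, were then called higher in the wing (adjusted p = 0.036 and 0.025). A supernatant only site of Hr4 was higher in the wing, with 1.098 ± 0.26 (adjusted p = 0.0064, DESeq2, the authors' deposited table). The 1 pellet only site higher in the wing was that of ex, with 1.58 ± 0.39 in the authors' deposited table (adjusted p = 0.0096, DESeq2).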

How the data were processed

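The submitters' processing notes name the aligner Bowtie2 2.3.4.1 and the peak caller MACS2 2.1.2. The same notes list Picard 2.2.4, SAMtools 1.9, bedtools 2.26, DESeq2 and R 3.5.2, with build dm6 but without settings. Going by how the deposited lists are named, both replicates were pooled, duplicate reads were taken out, and only fragments between 20 and 120 bp were used. Columns used from the lists are the authors' fold enrichment, which is a linear ratio, the −log10 of the q-value they deposited, and the authors' summit offset in bp. The authors' deposited tables hold, per site, the mean normalised count (a signal), the log2 fold change and standard error, the Wald statistic (a score), and the p-value, raw and adjusted. How those fits were set up, and how deep each library was, is not known here.

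Peaks were read as 1-based intervals and classed by an overlap of at least 1 bp with the other leg list, with Python 3.11.15, pandas 2.3.3, numpy 2.4.6 and SciPy 1.17.1. Shares have exact Clopper-Pearson 95% intervals. Calls rest on the authors' adjusted p under 0.05. For gene spans a RefSeq table of the same assembly served (17844 genes used, 13959 coding). Named were the 10 peaks of each class with the highest fold enrichment (nearest coding gene within 5000 bp), every gene of 17 lists with a leg summit in its span or within 2000 bp, and genes of the ecdysone, leg identity and Hox lists with peaks of more than 1 class. Of the names in the lists, phm, EcI, Dl, ban and dys were not matched to the gene table. Members and lists were chosen with earlier results of these data known. Overlap and adjustment were tested on simulated data. Centring moved the sites to a median log2 fold change of 0 and recomputed p-values from the authors' standard errors by the normal approximation, with Benjamini-Hochberg adjustment. Adjustment then ran over all sites with a raw p-value. Alternatives covered the overlap rule, a −log10 q minimum of 10, lists of equal length, the large arms alone, gene spans, centring, and, chosen after seeing the data, leaving out the centromere side.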

Additional observations from a re-analysis of the deposited data

How the results depend on the processing

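No paired analysis was possible because each list merges its replicates and holds no values per library, and for the same reason no replicate could be left out. Shares of the 2 leg lists are given as supernatant, then pellet (38.4% and 61.6% as reported). They were 29.4% and 46.5% with a reciprocal overlap of 50%, 44.9% and 65.0% with gaps of up to 500 bp counted as shared, 42.4% and 57.1% with a −log10 q of 10 or more in both lists, and 68.6% and 64.8% with that minimum in the counted list only. With lists of equal length they were 55.4% and 56.5%. Without the centromere side and chromosomes 4, Y and M, an alternative chosen after seeing the data, they were 35.3% and 81.0%. The ratio of median fold enrichment, shared over the rest, was 2.31 in the supernatant list and 1.34 in the pellet list. It was 2.12 and 1.68 with the −log10 q minimum in both lists, and for the supernatant list 1.86 with equal lists and 2.54 without the centromere side.

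Differences between classes are given as the supernatant only share minus the pellet only share, in percentage points. For summits inside a coding span the difference was 45.6, and it was 34.7 with reciprocal overlap, 57.3 with the −log10 q minimum and 10.97 (1.58 to 20.4) without the centromere side. That interval is a normal approximation that treats peaks as independent, which neighbouring peaks are not, so it was not read as a test. The pellet only runs at the far ends of 2R and X, which held no coding gene, remain in that count. For summits within 500 bp of a span end the difference was 7.90, and 10.8 with the −log10 q minimum, 10.9 within 1000 bp and 0.97 without the centromere side. For the wing supernatant list it was 28.9, and 22.8 with reciprocal overlap, 48.8 with the −log10 q minimum and 41.7 with equal lists. For the wing pellet list it was -15.6, -1.14 with equal lists, and it turned to 3.30 without the centromere side and chromosomes 4, Y and M. For the gland supernatant list it was 12.8, and 3.06 with reciprocal overlap and 19.7 with equal lists. For the gland pellet list it was 4.48, 9.59 with equal lists, and it turned to -0.54 with reciprocal overlap. For the centromere-side window it was -58.3, and -50.2 with a window of 2 Mb, also chosen after seeing the data. In these cases the cause was not tested.

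Pellet only sites higher in the leg than in the gland numbered 247 in the authors' deposited table, 124 after centring on the median of all sites, and 37 without the centromere side. The 47 sites at leg peaks called between wing and leg stayed within 1.5 times that number under every alternative run (33 to 53). Their balance between leg and wing, and that of supernatant only sites between leg and gland, changed sides on centring, as given with those results. Of 71 recomputed main values, 37 stayed within the interval of the reported value (counts within 1.5 times, ratios of medians within 5%), 32 moved outside it and 2 changed sign. Depth per library is unknown, so a peak missing from 1 list was not detected there at that depth and is not shown to be absent.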
